A study of Mus musculus with 6 samples.

Results

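Cathepsins are proteases that digest proteins, mostly in the acidic interior of the lysosome. The genes Ctsa, Ctsb, Ctsc, Ctsd, Ctse, Ctsh, Ctsk, Ctsl, Ctss and Ctsz were taken as the family here, and their probes were chosen as the non-control probes whose accession is a RefSeq transcript of one of them. These 10 genes, of 37163 gene names on the array, were covered by 12 probes. Ctsa and Ctsd had 2 probes each, and the other 8 genes had 1. Total RNA came from bone marrow cells of C57BL/6 mice that had been labelled and sorted, and GEO's description names them bone marrow mesenchymal stem cells. The young group held 3 samples from animals 3 months of age and the old group 3 samples from animals 24 months of age. No genotype, transgene or treatment is named for either group. The markers of the sort are not given in the sources used here. Whether each sample is a separate mouse is not stated, so p-values measure only the spread between these samples, which may be technical.

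The family falls into groups by how the enzyme cuts. Ctsb, Ctsc, Ctsh, Ctsk, Ctsl, Ctss and Ctsz encode cysteine proteases, Ctsd and Ctse aspartic proteases, and Ctsa a serine carboxypeptidase. They are made as inactive proenzymes that are cleaved on the way to or inside the lysosome. Some are found in nearly all cells, whereas Ctss is a protease of antigen-presenting cells and Ctsk of osteoclasts. In bone marrow, macrophages, granulocytes, osteoclasts and red cell precursors each use a different set of these enzymes.

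All signals below are log2 processed intensities relative to the 75th percentile of the same array, so 0 is the brightness that 3 in 4 probes do not reach. That percentile was 277 to 349 intensity units on the young arrays and 206 to 285 on the old arrays, and 55.3% to 60.0% of probes were well above background on young arrays against 50.9% to 53.4% on old ones. All arrays were on 1 slide, with the ages in separate rows, and an effect of the row cannot be told apart from age. Of 14 stromal genes that bear on the label, 6 stood well above background on all 6 arrays and 4 (Foxc1, Prrx1, Pdgfra, Pdgfrb) on none, while 10 of 10 genes shared by all leukocytes and 9 of 9 erythroid genes were so on all 6.

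In old samples 2 cathepsins fell, Ctss by a factor of 5.79 and Ctsh by a factor of 4.15, and the other 7 tested members did not pass the test. The ages were compared by limma over 23266 genes, and a gene passed at a Benjamini-Hochberg adjusted p under 0.05. Of the 9 members that could be tested, 2 were called lower, where 4.04% of all genes tested were called lower. No member was called higher by limma (0 at an unadjusted p under 0.05), against 3.98% of all genes tested. Of all calls 49.6% were higher in old samples, but 39.0% with the authors' deposited table of values and 62.0% with normexp background correction. The median log2 fold change of the tested members was -0.12, beside 0.07 for all genes tested.

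**Figure D1:**
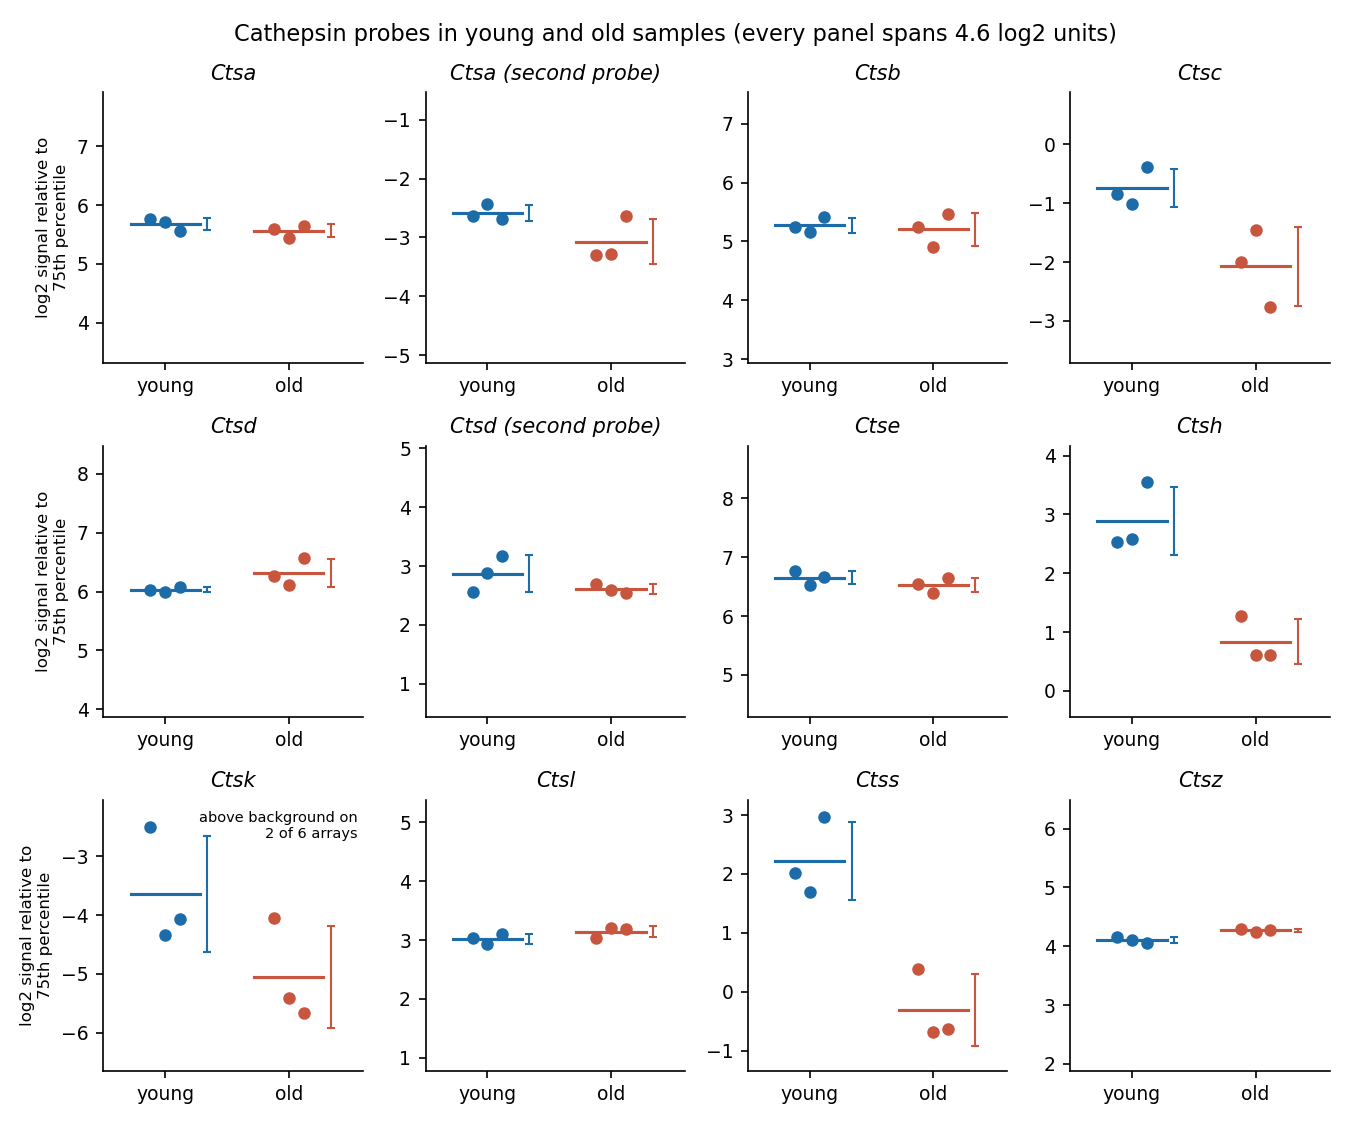
Signals of the 12 cathepsin probes (y axis, log2 relative to the 75th percentile of the array) in young and old samples. Points are single arrays, horizontal bars are group means and error bars are 1 SD (n = 3). For Ctss and Ctsh the lowest young array lies above the highest old array, by 1.30 and 1.25, and the probes of Ctsb, Ctse and Ctsl overlap between the ages.

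Ctss (NM_021281) encodes cathepsin S, which trims the invariant chain from MHC class II molecules in antigen-presenting cells. Its signal was 2.02, 1.69 and 2.96 on young arrays 1 to 3 against 0.39, -0.69 and -0.63 on old arrays 1 to 3. The groups did not overlap, young replicate 3 was the highest array, and old replicate 1 was the highest of the old arrays. The log2 fold change was -2.53 ± 0.42 (SE; limma adjusted p = 0.0295, n = 3 and 3), with a 95% interval of the fold from 2.84 to 11.8 times lower. Of all genes tested, 0.292% had a log2 fold change as low or lower. The call ended when single arrays were left out: without young replicate 1, 2 or 3 the values were -2.64, -2.80 and -2.16 (limma adjusted p = 0.0592, 0.0708 and 0.0592), and without old replicate 2 or 3 they were -2.34 and -2.37 (limma adjusted p = 0.0870 and 0.0930).

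Ctsh (NM_007801) encodes cathepsin H, an aminopeptidase of the lysosome that also cuts inside chains. Its signal was 2.53, 2.58 and 3.56 on young arrays 1 to 3 against 1.28, 0.61 and 0.62 on old arrays 1 to 3. As for Ctss, the groups did not overlap, young replicate 3 was highest of its group, and so was old replicate 1. The log2 fold change was -2.05 ± 0.33 (limma adjusted p = 0.0277), with a 95% interval of 2.38 to 7.25 times lower. Without young replicate 3 it was -1.72 and the call held (limma adjusted p = 0.0492). The call ended without young replicate 2 (-2.21, limma adjusted p = 0.0764), old replicate 2 (-1.94, limma adjusted p = 0.0837) or old replicate 3 (-1.95, limma adjusted p = 0.0896). With no filter on dim probes Ctss and Ctsh both missed the threshold (limma adjusted p = 0.0617).

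Ctsc (NM_009982) encodes dipeptidyl peptidase 1, which removes dipeptides to activate the serine proteases of neutrophils, mast cells and cytotoxic lymphocytes. Its signal was -0.84, -1.01 and -0.38 on young arrays 1 to 3 against -2.002, -1.45 and -2.77 on old arrays 1 to 3. All old arrays lay below all young arrays, by 0.44 at the closest pair, but the old arrays spread over 1.32 log2 units. The log2 fold change of -1.33 ± 0.35 did not pass (limma adjusted p = 0.0736). With normexp background correction it was -0.70 and passed (limma adjusted p = 0.0159). Ctss, Ctsh and Ctsc were the 3 members whose old arrays all lay below the young ones, an order seen in 13.1% of all genes tested.

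**Figure D2:**
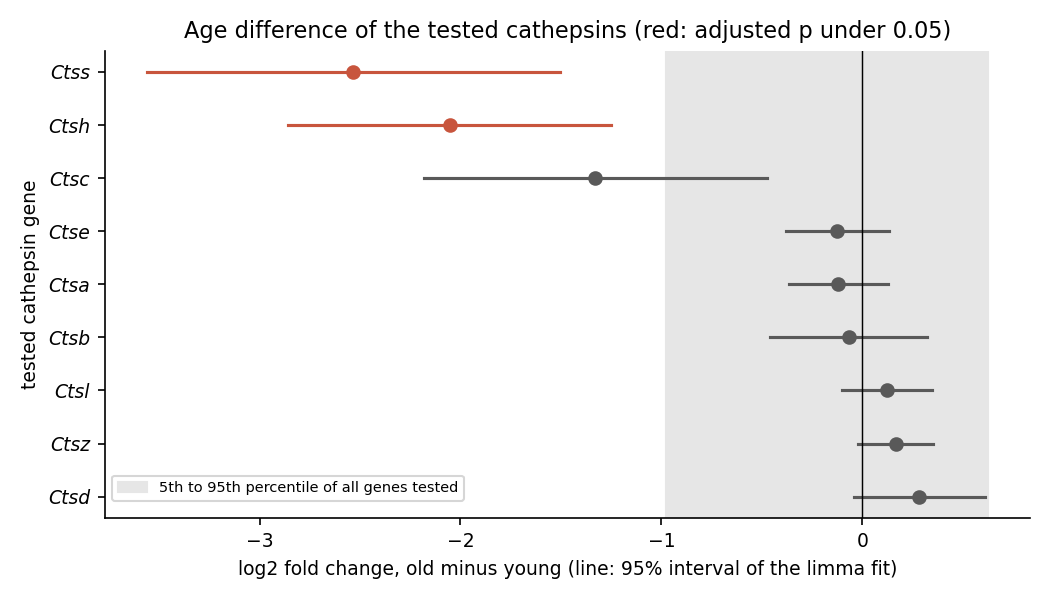
Log2 fold change of the 9 tested cathepsins (x axis, old minus young) with its 95% interval from the limma fit, over the range from the 5th to the 95th percentile of all genes tested, -0.98 to 0.62 (grey). Ctss, Ctsh and Ctsc lie below that range and the other 6 members lie within it.

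Promoters of these genes differed in the short motifs they held. The table of RefSeq promoters (GRCm38.p6) matched 7 of the 10 members with 8 windows, 2 of them for Ctsa, and Ctsb, Ctse and Ctsh were not matched. The 250 bases before the start of each transcript were searched on both strands for 4 motifs, chosen with earlier results of these data known: CACGTG, the E-box core bound by TFEB and related factors of lysosomal genes, the longer CLEAR element, which is CACGTG with GT before and AC after it, GAGGAAGT, a site of the myeloid factor PU.1, and the core of an interferon response element, which is GAAA, any 2 bases and GAAA again. The windows of Ctss and Ctsc are shown because both genes had lower signals on every old array, and that of Ctsd as a lysosomal member without such a shift. Capitals mark the motif matches, read 5′ to 3′ along the strand of the gene.
Ctss, chr3:95526536-95526785, plus strand: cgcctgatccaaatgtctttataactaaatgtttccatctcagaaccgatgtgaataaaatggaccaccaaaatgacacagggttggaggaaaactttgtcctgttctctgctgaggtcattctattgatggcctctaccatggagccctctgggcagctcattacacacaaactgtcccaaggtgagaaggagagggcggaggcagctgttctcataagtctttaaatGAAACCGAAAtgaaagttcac
Ctsc, chr7:88277835-88278084, plus strand: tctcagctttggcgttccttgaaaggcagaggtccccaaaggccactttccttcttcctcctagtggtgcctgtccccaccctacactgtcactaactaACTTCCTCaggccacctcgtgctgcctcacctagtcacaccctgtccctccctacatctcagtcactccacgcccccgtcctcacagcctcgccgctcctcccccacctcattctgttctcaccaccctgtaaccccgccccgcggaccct
Ctsd, chr7:142387828-142388077, minus strand: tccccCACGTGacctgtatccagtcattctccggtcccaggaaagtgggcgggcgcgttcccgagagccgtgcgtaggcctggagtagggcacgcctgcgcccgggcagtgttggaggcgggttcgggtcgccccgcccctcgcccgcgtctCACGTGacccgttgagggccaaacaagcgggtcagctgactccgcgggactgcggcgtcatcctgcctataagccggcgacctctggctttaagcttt
The Ctss window held 1 match to the interferon response core, at position -21 from the transcript start, and 2.98% of 32851 promoter windows of that length held one. The Ctsc window held GAGGAAGT once, on the opposite strand, at position -151 (2.44% of windows). The Ctsd window held CACGTG at positions -245 and -98. One match to CACGTG was found for Ctsl and 1 in the second window of Ctsa, against 6.02% of all windows. The windows of Ctss, Ctsc, Ctsk and Ctsz held no CACGTG, and none of the 8 windows held the CLEAR element, present in 0.240% of all windows. A match is a description of the letters and no evidence of binding.

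Apart from Ctss, Ctsh and Ctsc, the 6 other tested members did not pass and had log2 fold changes of at most 0.28 in size. Ctsb (NM_007798), cathepsin B, had signals of 5.25, 5.16 and 5.41 on young arrays 1 to 3 against 5.24, 4.91 and 5.47 on old arrays 1 to 3, so the old group enclosed the young one. Its log2 fold change was -0.07 with a 95% interval of -0.46 to 0.32 (limma adjusted p = 0.820), and its sign turned without young replicate 3 (0.0027) or old replicate 2 (0.08). Ctsl (NM_009984), cathepsin L, an endopeptidase of the lysosome, had signals of 3.04, 2.93 and 3.095 in young and 3.04, 3.20 and 3.18 in old samples. The groups overlapped, and the interval of the log2 fold change ran from -0.10 to 0.35 around 0.12.

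Ctsz (NM_022325), cathepsin Z, a carboxypeptidase with an integrin-binding motif in its proregion, had signals of 4.16, 4.10 and 4.05 in young and 4.29, 4.24 and 4.27 in old samples. Every old array lay above every young array, though by only 0.08 at the closest pair. Its log2 fold change of 0.17, with an interval of -0.02 to 0.35, did not pass (limma adjusted p = 0.222). Ctsz and Ctsd were the 2 members with all old arrays above all young ones, an order that 22.9% of all genes tested showed.

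Ctsd (NM_009983), cathepsin D, the main aspartic protease of lysosomes, gave opposite signs with its probes. The brighter probe had 6.03, 5.99 and 6.08 on young arrays 1 to 3 against 6.26, 6.11 and 6.58 on old arrays 1 to 3. The other probe had 2.56, 2.88 and 3.18 in young and 2.70, 2.59 and 2.54 in old samples, and there the groups overlapped. Their log2 fold changes were 0.28 ± 0.13 and -0.26 ± 0.17, and neither passed (limma adjusted p = 0.230 over genes and 0.367 over probes). With both probes averaged the value for Ctsd was 0.01, so no direction can be given for this gene.

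Ctsa (NM_008906) encodes cathepsin A, also called protective protein, which holds neuraminidase 1 and beta-galactosidase in a complex in the lysosome. Its brighter probe ran from 5.56 to 5.77 in young and from 5.44 to 5.65 in old samples, and the log2 fold change was -0.12 with an interval of -0.36 to 0.13. The dim probe of Ctsa had the same sign, at -0.49 ± 0.20 (limma adjusted p = 0.189 over probes). Its old replicate 3 lay within the young range and the other old arrays below it.

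Ctse (NM_007799) encodes cathepsin E, an aspartic protease outside the lysosome that is known from red cell membranes and from the stomach lining. It had signals of 6.76, 6.54 and 6.66 in young and 6.55, 6.40 and 6.64 in old samples, which overlapped. The log2 fold change was -0.12 with an interval of -0.38 to 0.13 (limma adjusted p = 0.487). Of 9 tested erythroid markers limma called 0 (1 lower at an unadjusted p under 0.05), with a median log2 fold change of -0.02. Of 5 stomach mucosa genes 4 stood well above background on none of the arrays. The other, Muc5ac, did so on all 6, with a log2 fold change of 0.21 that did not pass. The erythroid gene with the smallest p, the membrane skeleton gene Epb42, had -0.54 ± 0.15 (limma adjusted p = 0.0771).

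Ctsk (NM_007802), cathepsin K, the collagen-digesting protease of osteoclasts, could not be tested with the others. It was well above background on young replicates 1 and 2 only, and a test needed 3 of the 6 arrays. Its signal was -2.51, -4.35 and -4.07 on young arrays 1 to 3 against -4.06, -5.41 and -5.66 on old arrays 1 to 3, so old replicate 1 lay within the young range. Setting the young mean against the lowest signal well above background on each old array, or the probe's own signal where that was higher, Ctsk was at least 1.26-fold lower in old samples. This bound rests on young replicate 1: without it the young mean was -4.21, under the old limit of -3.97, and no fold can be given. Without the filter on dim probes the log2 fold change of Ctsk was -1.40 ± 0.63, with a 95% interval of -2.96 to 0.16 (limma adjusted p = 0.199). Ctsk and Ctss are neighbours on chromosome 3 in RefSeq with 0 protein-coding genes between them.

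**Figure D3:**
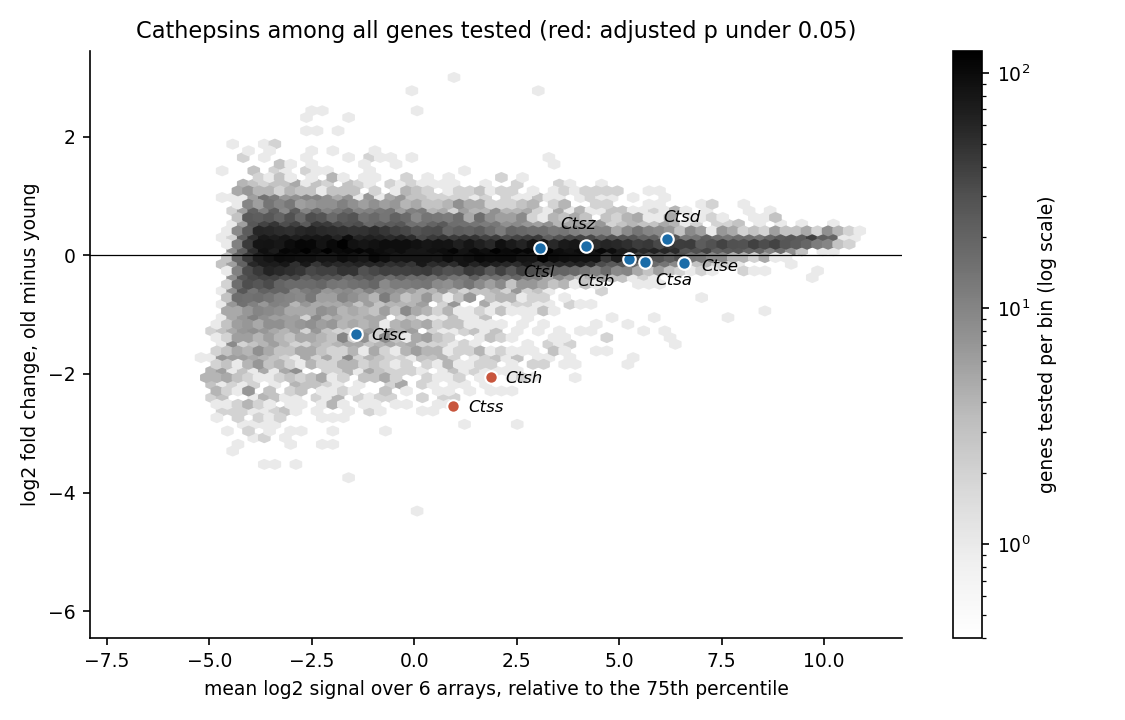
Log2 fold change (y axis, old minus young) against the mean log2 signal over 6 arrays (x axis) for the 23266 genes tested, with the 9 tested cathepsins marked. Ctss and Ctsh, in red, lie below most genes of like brightness, and the brightest members lie near 0.

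Brightness mattered for how unusual a change of given size was. Of 4160 genes with a mean signal from 0 to 2, which include Ctss and Ctsh, 4.78% were called lower, and 5% had a log2 fold change of -0.80 or less. Ctsc lay from -2 to 0, where that limit was -1.16. Of the 2201 genes from 4 to 6, where Ctsa, Ctsb and Ctsz lay, 0.409% were called lower and 2.86% higher. From 6 to 8, where Ctsd and Ctse lay, the median gene had a log2 fold change of 0.14. The 5th and 95th percentiles of that bin were -0.11 and 0.43, and 0 of its 942 genes were called lower. The value of Ctsd, 0.28, lay within these limits, and that of Ctse, -0.12, lay just below the lower one.

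The lists of other cathepsin and lysosome genes were chosen with earlier results known and are given by counts and medians, with no test of a list. Their calls changed when single arrays of either age were left out. Such a fit also has fewer arrays, so a lost call cannot be laid to the array itself. Without old replicate 2 or old replicate 3 limma called 0 genes in each of the 19 lists, although, for example, 8 of 11 monocyte and 6 of 12 inhibitor genes were lower at an unadjusted p under 0.05 either way. Over all genes the count was then 1 and 5, against 1864 with all arrays, and 63 without young replicate 2. At an unadjusted p under 0.05, in either direction, 5023 and 4959 of 23266 genes passed without old replicate 2 and 3. With all arrays that number was 6470, without young replicate 2 and 3 it was 5213 and 5291, and without old replicate 1 it was 6319. Of 13 cathepsins outside the 10, 7 stood well above background on none of the arrays and 5 could be tested. Ctsg, a serine protease of neutrophil granules that Ctsc activates, was the 1 of 5 to fall, by 1.36 ± 0.30 (limma adjusted p = 0.0488). Its signal was 3.67, 4.41 and 4.87 in young and 3.17, 2.88 and 2.83 in old samples, without overlap. Of 8 genes listed as substrates of dipeptidyl peptidase 1, Gzma, a granule protease of cytotoxic lymphocytes, and Ctsg fell. The median log2 fold change of the list was -1.03. The list includes Mpo, named outside the rule, which encodes a peroxidase and not a serine protease. Mpo had -1.06 ± 0.32 and did not pass (limma adjusted p = 0.0991). Gzma had -2.32 ± 0.51 (limma adjusted p = 0.0477), and its brightest array was young replicate 3, at 1.73. Without that array Gzma passed and Ctsg did not, and without young replicate 1 both passed, as did Mpo. Gzma, Ctsg and Mpo did not pass without young replicate 2 or old replicate 1.

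Inhibitors of cathepsins fell in 4 of 12 tested genes, with a median of -0.52. All 4 were stefin A genes, which encode cytosolic inhibitors of cysteine cathepsins: Stfa2l1 at -1.87 ± 0.34, Stfa1 at -1.73 ± 0.28, Stfa2 at -1.73 ± 0.30 and Stfa3 at -0.92 ± 0.16 (limma adjusted p from 0.0276 to 0.0326). These genes are close copies of each other, so a probe may read more than one of them, which was not tested, and the 4 calls are uncertain as separate ones. Without young replicate 3 the same 4 genes passed, and without young replicate 2 none did by limma (6 lower at an unadjusted p under 0.05). Of the 4, Stfa2 and Stfa2l1 passed without young replicate 1, and only Stfa1 without old replicate 1. Cstb, stefin B, and Cst3, cystatin C, the inhibitors common to most cells, were named after their values were seen and had -0.03 ± 0.08 and -0.16 ± 0.08.

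Among 10 partners and processing enzymes 1 fell, with a median of -0.20. It was Lgmn, legumain, the asparagine-specific protease that processes several cathepsins, with -2.02 ± 0.32 (limma adjusted p = 0.0276). Its signal was 0.33, -0.51 and 0.65 in young and -1.53, -2.12 and -1.93 in old samples, without overlap. Cd74, the invariant chain that Ctss cuts, was named outside the rule and had -1.48 ± 0.35, which did not pass (limma adjusted p = 0.0581). Of 8 MHC class II genes 3 fell, H2-Aa at -1.92 ± 0.39, H2-Oa at -1.38 ± 0.21 and H2-Ob at -1.05 ± 0.23, with a median of -0.97. Lgmn passed without young replicate 2 or old replicate 1, and did not without young replicate 1 or 3. Without young replicate 3 only H2-Oa of the MHC class II genes passed, and without young replicate 2 or old replicate 1 none did by limma (6 lower at an unadjusted p under 0.05 either way).

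**Figure D4:**
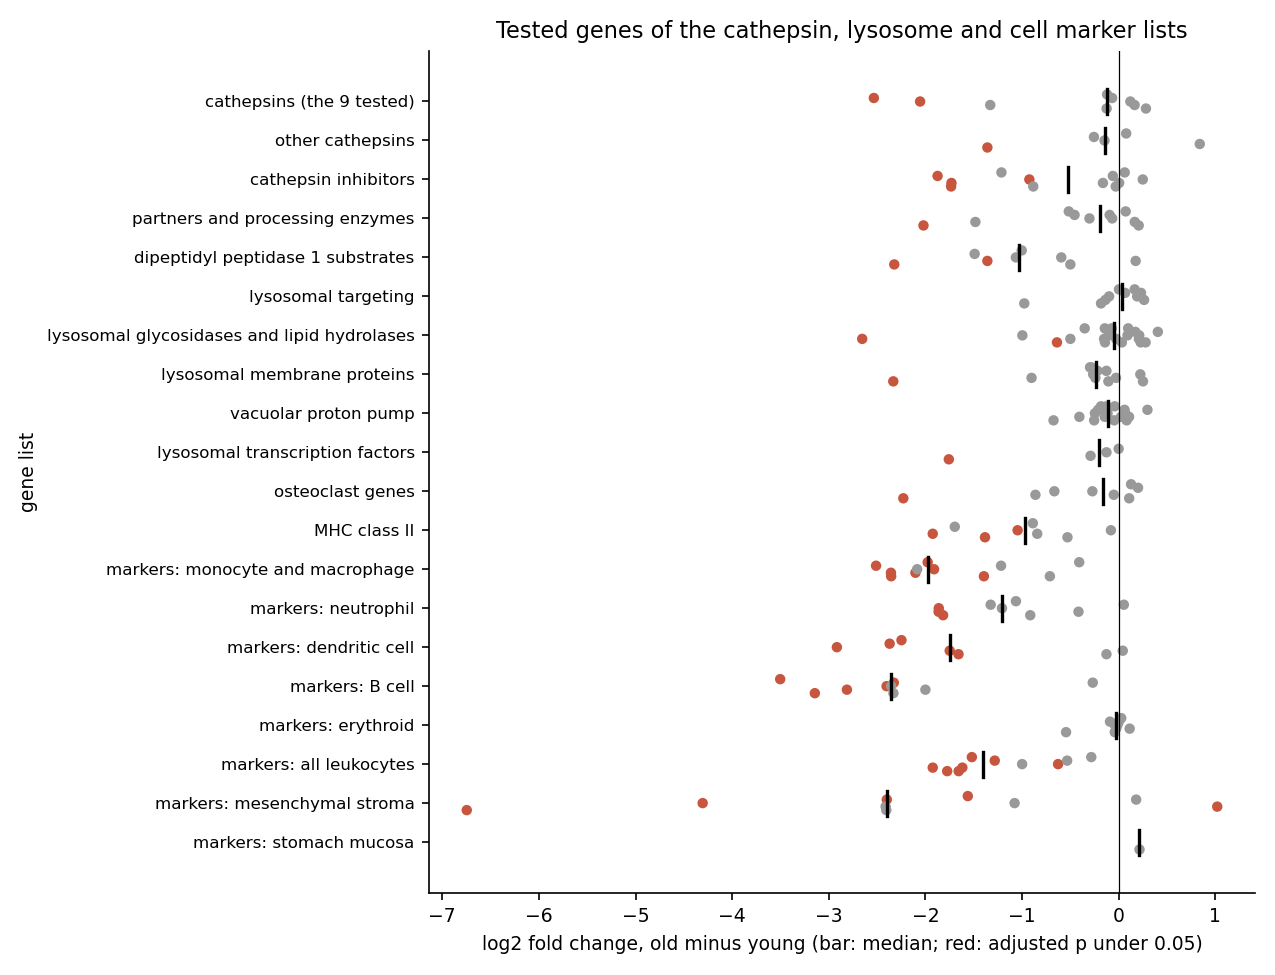
Log2 fold change (x axis, old minus young) of each tested gene in the cathepsins and 19 other lists (y axis), with the median of each list as a bar and genes past an adjusted p of 0.05 in red. Lysosomal hydrolases and the proton pump centre near 0, at -0.05 and -0.11, and membrane proteins at -0.23. The leukocyte, monocyte, dendritic, B cell and neutrophil markers lie lower. So do the stromal genes, with the lowest median (-2.40), the dipeptidyl peptidase 1 substrates (-1.03) and the MHC class II genes (-0.97).

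Most of the general lysosome did not pass. Of 22 glycosidases and lipid hydrolases 2 fell, with a median of -0.05. They were Man2b1, lysosomal alpha-mannosidase, at -0.64 ± 0.11 (limma adjusted p = 0.0303) and Gm2a, the GM2 activator, at least 3.46-fold lower with no old array well above background. Of 12 lysosomal membrane proteins 1 fell, the phagosomal metal transporter Slc11a1 at -2.33 ± 0.42 (limma adjusted p = 0.0324), with a median of -0.23. Tfec, a myeloid member of the TFEB family, was at least 1.38-fold lower and was the 1 of 4 lysosomal transcription factors to fall. Without young replicate 3 the bounds of Tfec and Gm2a were 1.11-fold and 2.90-fold. Of 10 targeting genes and 17 proton pump subunits limma called 0 (1 lower and 1 higher, and 3 lower and 0 higher, at an unadjusted p under 0.05), with medians of 0.04 and -0.11. In those lists the genes with the smallest p were Sort1, the receptor sortilin, at -0.98 ± 0.25 (limma adjusted p = 0.0670) and Tcirg1, the pump subunit of osteoclasts, at -0.67 ± 0.17 (limma adjusted p = 0.0700). Of 8 tested osteoclast genes 1 fell, Mmp9, a gelatinase also made by neutrophils, at -2.23 ± 0.46 (limma adjusted p = 0.0417), with a median of -0.16. Man2b1 and Gm2a passed in none of the fits without 1 array, Slc11a1 passed without young replicate 1 or old replicate 1, Tfec without young replicate 1 and Mmp9 without old replicate 1.

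Some markers of monocytes, dendritic cells, B cells and neutrophils fell in the same samples as Ctss and Ctsh, and none of the erythroid markers passed. Of 11 tested monocyte and macrophage markers 7 fell, among them Mpeg1 at -2.36 ± 0.29, Ccr2 at -2.51 ± 0.37, Aif1 at -1.91 ± 0.28 and Mrc1, which was at least 1.41-fold lower. That list had a median of -1.98, its summed signal was 23.5 to 52.3 times the 75th percentile in young and 10.48 to 15.1 times in old samples, and Mertk and Cd163 stood well above background on none of the arrays. Dendritic cell markers fell in 5 of 7 (median -1.75), including Flt3 at -1.75 ± 0.17, Irf8 at -2.37 ± 0.30, Cd209a, at least 2.50-fold lower, and Clec9a, at least 1.25-fold lower. Without young replicate 3 the bounds of Mrc1, Cd209a and Clec9a were 1.14-fold, 2.10-fold and 1.16-fold. The summed dendritic signal overlapped, at 301 to 364 and 299 to 345, but Siglech alone made up 97.0% to 99.5% of it, and the other genes summed to 4.96 to 8.91 in young and 1.70 to 2.15 in old samples. Siglech was named for that share, and Xcr1 stood well above background on none of the arrays. B cell markers fell in 5 of 9 (median -2.35, summed signal 30.6 to 65.3 and 4.73 to 12.1), including Ebf1 at -3.14 ± 0.30 with 1 of 3 old arrays well above background, Vpreb3 at -2.81 ± 0.38 and Cd79b at -2.33 ± 0.40.

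Neutrophil markers fell in 3 of 9 (median -1.21, summed signal 1890.4 to 2779 and 1283 to 1581), namely Retnlg at -1.82 ± 0.30, Mmp8 at -1.86 ± 0.32 and Cxcr2 at -1.86 ± 0.38. Genes of all leukocytes fell in 7 of 10 (median -1.40, summed signal 109 to 201 and 60.0 to 71.3), among them Cytip at -1.77 ± 0.22, Cd52 at -1.62 ± 0.27, Cd37 at -0.63 ± 0.11 and Ptprc at -1.28 ± 0.24. Of 9 tested stromal genes 4 fell and 1 rose (median -2.40, summed signal 25.0 to 45.3 and 35.1 to 42.6). Col1a1 was at least 31.6-fold lower, Sparc had -4.30 ± 0.77, Cxcl12 -2.40 ± 0.43 and Lepr 1.02 ± 0.15. Young replicate 2 lay lowest of the young arrays for Col1a1 (-0.82 against 1.85 and 1.997) and Sparc (0.49 against 3.13 and 3.34), and without it Col1a1 was at least 59.6-fold lower and Sparc had -5.22 ± 0.25. Lepr alone made up 29.9% to 77.4% of the summed stromal signal, which overlapped between the ages. The other stromal genes summed to 12.6 to 31.5 in young and 9.63 to 10.8 in old samples, without overlap. Without young replicate 3, 4 of 11 monocyte, 4 of 7 dendritic, 1 of 9 B cell, 1 of 9 neutrophil and 3 of 10 leukocyte genes passed, with medians of -1.65, -1.62, -2.58, -0.89 and -1.12. Among the stromal genes none passed by limma without that array (5 lower and 1 higher at an unadjusted p under 0.05). Without young replicate 2 the counts were 1 of 11 monocyte, 1 of 7 dendritic, and none of the B cell, neutrophil and leukocyte genes (9, 7 and 9 lower at an unadjusted p under 0.05). Of the stromal genes 3 of 9 passed then, all lower (Col1a1, Col1a2 and Sparc, of which Col1a2 is named outside the rule), and Lepr did not. In these bulk samples fewer cells of a type and less RNA per cell cannot be told apart, and the part of cell composition in the Ctss and Ctsh differences was not tested.

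**Figure D5:**
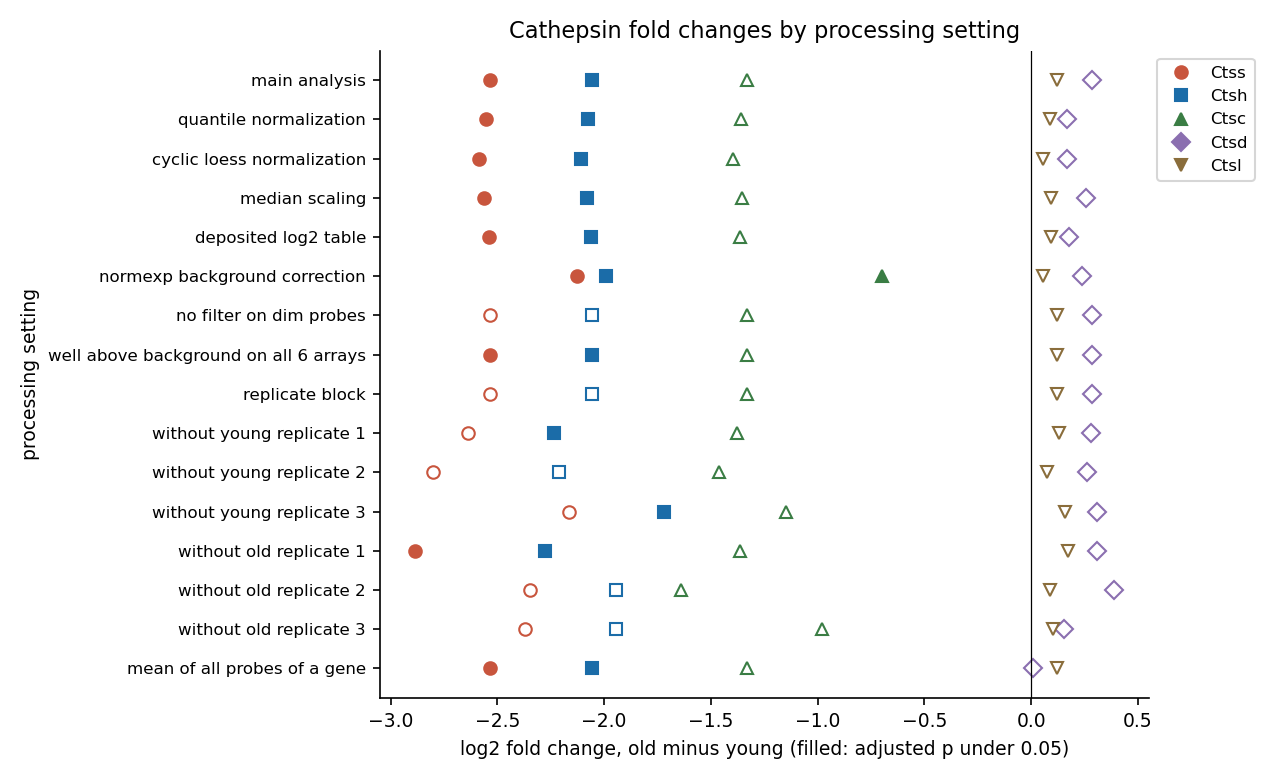
Log2 fold change of 5 cathepsins (x axis, old minus young) under the main analysis and 15 alternatives (y axis), with filled symbols at a limma adjusted p under 0.05. Ctss ran from -2.88 to -2.13 and Ctsh from -2.28 to -1.72 over the alternatives, while Ctsd ran from 0.01 to 0.39 and Ctsl from 0.06 to 0.18.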

How the data were processed

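Total RNA, extracted with Trizol and labelled with pCp-Cy3 per the labels' protocols, was measured on 6 Agilent 1-colour arrays. The authors deposited scanner files whose processed signal is an intensity with background and spatial trend removed by Feature Extraction 10.7.3.1 per the file headers (10.5.1.1 per the submitters' processing notes), on a design annotated on mm9. The authors' deposited series table has log2 values of 52095 probes, with scaling and centring unknown here. Its columns correlated with the log2 intensity of their own arrays at 0.9986 to 0.9995 across probes, with medians of 4.87 to 4.95.

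Control and outlier spots were left out, and repeated spots were averaged. Values are log2 intensity minus the 75th percentile of the 55681 averaged probes of the array. No probe was saturated on any array. Symbols came from RefSeq GRCm38.p6 by accession for 26413 probes (47.4%). Each gene was taken by its probe with the highest mean and tested when well above background on at least 3 of 6 arrays. The difference old minus young was fitted by limma 3.58.1 under R 4.3.3 (lmFit, eBayes, no covariates), after a run on simulated data, with Python 3.11.15 and pandas 2.3.3 for the rest. A probe dim on all old arrays got a bound on its fold (at least N-fold).

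Alternatives were quantile, cyclic loess and median scaling, the deposited table, normexp with an offset of 50 (on the median spot signal, as the files used here hold no mean signal), other filters on dim probes, the mean of all probes, a replicate block and leaving out each array. Same-numbered samples did not deviate together (correlations of -0.03, 0.02 and -0.01), so the numbers were not taken as pairs. Members, lists and motifs were chosen with earlier results of these data known. All members were named, and from each list up to 4 genes past the threshold with the smallest p, or the 1 with the smallest p where none passed, except 1 gene that is not reported here.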

Additional observations from a re-analysis of the deposited data

How the results depend on the processing

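Ctss and Ctsh kept their sign in all 15 alternatives. The scalings, the deposited table, normexp, the stricter filter and the mean of probes left both calls in place, with limma adjusted p from 0.0034 to 0.0333. Without a filter on dim probes limma called 0 of the members, 0 of their probes and 0 of all genes (11654 genes at an unadjusted p under 0.05), with an adjusted p of 0.0617 for both Ctss and Ctsh. The same 3 counts were 0, 0 and 0 with the replicate block (5555 genes unadjusted), where Ctss and Ctsh had 0.107. Leaving out 1 array gave 0 to 2 members called, 0 to 2 of them lower, 0 to 2 probes, and 1 to 1154 genes of 1864. Each array moved the gene count by over 1.5 times: it was 768, 63 and 320 without young replicate 1, 2 and 3, and 1154, 1 and 5 without old replicate 1, 2 and 3. Normexp raised the gene count to 2909. Ctsb, from -0.20 to 0.08 over the fits without 1 array, turned sign without young replicate 3 (0.0027) and without old replicate 2 (0.0819), and no other member did. The gene lists, bounds and summed signals without single arrays or genes were added after the data were seen. The number of arrays limits precision, and Ctsk was too dim for a test.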
